A study of Mus musculus with 3 samples.

Results

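Olfactory receptor gene clusters were examined in proliferating C2C12 cells, an established mouse myoblast line of strain C3H. They were taken as 5 stretches of the mouse genome build mm9: chromosome 2 from 36 to 38 Mb, chromosome 2 from 85 to 91 Mb, chromosome 7 from 109.6 to 115.5 Mb, chromosome 9 from 37.5 to 40.2 Mb and chromosome 19 from 12 to 14 Mb. Every entry of 2 deposited lists whose midpoint fell in these 18.6 Mb was a member, which gave 133 of the 19549 KAP1 peaks and 222 of the 39526 H3K9me3 regions. Each cluster was compared with its flanks, the stretches of the same length directly before it (proximal flank, at lower coordinates) and after it (distal flank). The lists come from chromatin immunoprecipitation with sequencing, with 1 library made with a rabbit antibody raised against KAP1 and 1 with an antibody against H3K9me3, histone H3 trimethylated at lysine 9. All cells were growing, undifferentiated myoblasts, and a library made without antibody was not analysed here. There was no replicate, so no value has a spread between replicates and no p-value is given. Intervals are 95% intervals that cover counting error over regions only, and neighbouring regions are not independent.

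Olfactory receptors are the G protein-coupled receptors with which sensory neurons of the nose detect odorants. Their genes form one of the largest families of the mouse genome, stand in long tandem arrays, and are silent in nearly all other cells. In the olfactory neuron itself the arrays carry heterochromatin marks that include H3K9me3, and each neuron expresses a single receptor allele. KRAB zinc finger proteins bind DNA and recruit the corepressor KAP1, also called TRIM28. KAP1 in turn recruits SETDB1, a methyltransferase that deposits H3K9me3. This pathway is best known for silencing endogenous retroviruses and other transposable elements. In the RefSeq gene table of another build (GRCm38.p6), 941 of 1428 genes with an Olfr symbol lay on chromosomes 2, 7, 9 and 19. There were 377 on chromosome 2, 294 on chromosome 7, 179 on chromosome 9 and 91 on chromosome 19, and the longest run of neighbouring protein-coding Olfr genes held 123 genes, on chromosome 2. That table was used for names and neighbours only. No call could therefore be assigned to a single receptor gene. Whether the 5 stretches also hold other genes, and whether the flanks hold receptor genes, was not checked. Peak lists hold no expression values, so neither the identity of the cells nor receptor expression was examined.

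The receptor clusters were neither filled with H3K9me3 nor free of it. Calls of both lists were unevenly spaced, with stretches of over 200 kb that held none, inside the clusters as in the flanks. Pooled over the 5 clusters, KAP1 peaks stood at 7.15 per Mb (interval 5.99 to 8.47) against 6.40 in the flanks (5.61 to 7.26), a ratio of 1.12 with an interval of 0.897 to 1.39. H3K9me3 regions stood at 11.9 per Mb (10.4 to 13.6) against 10.3 in the flanks (9.29 to 11.4), a ratio of 1.16 with an interval of 0.978 to 1.37. Neither ratio was separated from 1 by counting error. Against the rest of the genome the KAP1 density of the clusters had a ratio of 0.944 (0.790 to 1.12), and the H3K9me3 density was lower, with a ratio of 0.778 (0.679 to 0.888). The flanks lay below the whole-list densities of 7.57 KAP1 peaks and 15.3 H3K9me3 regions per Mb as well.

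**Figure D1:**
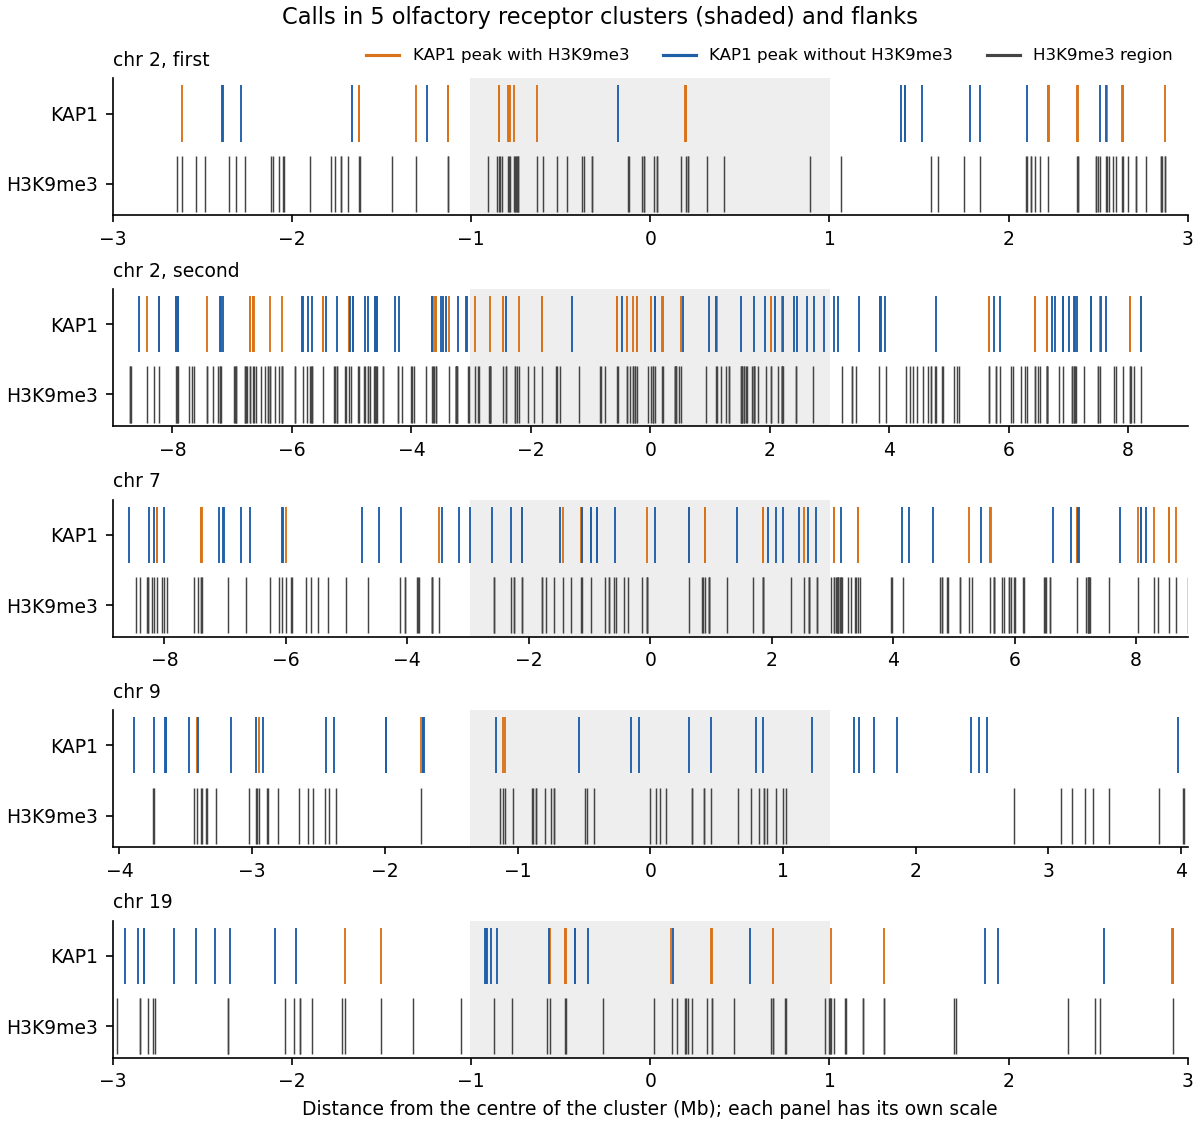
Positions of KAP1 peaks (upper ticks) and H3K9me3 regions (lower ticks) in the 5 clusters (shaded) and their flanks, as distance from the centre of each cluster in Mb, with a separate scale for each panel. Of the 133 KAP1 peaks of the clusters 80 have another within 10 kb and 53 stand alone, and on chromosome 2 most cluster peaks are of the orange class that overlaps H3K9me3.

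The clusters differed among themselves more than the pooled values show. KAP1 density was 6.5 peaks per Mb in the first chromosome 2 cluster (13 peaks), 8.83 in the second (53 peaks), 5.59 on chromosome 7 (33 peaks), 4.07 on chromosome 9 (11 peaks) and 11.5 on chromosome 19 (23 peaks). Only on chromosome 19 did the interval of the ratio to the flanks leave out 1, at 2.30 (1.21 to 4.42). The other ratios ran from 0.759 to 1.16. H3K9me3 density ran from 7.80 regions per Mb on chromosome 7 (46 regions) to 18.5 in the first chromosome 2 cluster (37 regions). The second chromosome 2 cluster had 82 regions, chromosome 9 had 33 and chromosome 19 had 24. Here chromosome 9 alone had an interval that left out 1, with 12.2 regions per Mb against 5.93 in its flanks, a ratio of 2.06 (1.23 to 3.46). These are 10 intervals of 95% each, and they were not adjusted for their number. The ratios of single clusters moved with the choice of flanks. In the first chromosome 2 cluster the H3K9me3 ratio was 1.25 (0.808 to 1.92) with full flanks and 2.18 (1.20 to 4.12) with flanks of 50% of the length.

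**Figure D2:**
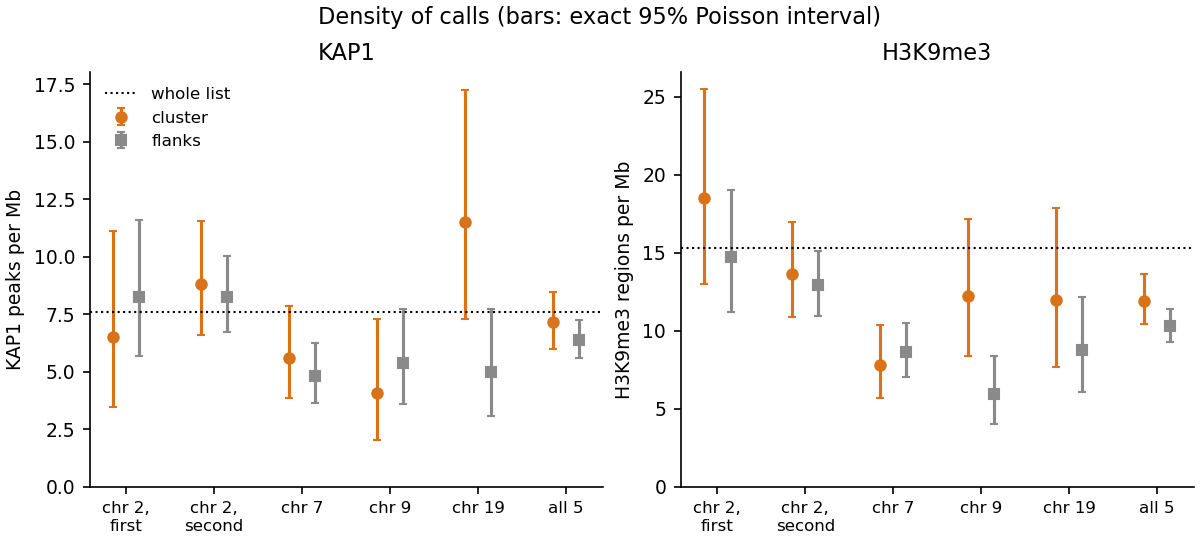
KAP1 peaks (left) and H3K9me3 regions (right) per Mb in each cluster and its flanks, with exact 95% Poisson intervals and the density of the whole list as a dotted line. The intervals of cluster and flanks overlap in every pair but H3K9me3 on chromosome 9, and the widest separations are KAP1 on chromosome 19 (11.5 against 5) and H3K9me3 on chromosome 9 (12.2 against 5.93).

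Counted peak by peak, KAP1 peaks of the receptor clusters overlapped H3K9me3 more often than those of the flanks, and counted by groups of neighbouring peaks the difference was not separated from 0. Overlap means at least 1 shared bp, and over the whole list 44.1% of KAP1 peaks had it. In the clusters 72 of 133 peaks did (54.1%, interval 45.7 to 62.4), and in the flanks 99 of 238 (41.6%, 35.5 to 47.9). The difference was 12.5 percentage points, with an interval of 1.96 to 22.8. From the rest of the list the clusters differed by 10.1 points (1.60 to 18.4), also counted peak by peak. The largest differences were on chromosome 2, where 12 of 13 peaks of the first cluster (92.3%, interval 66.7 to 98.6) and 34 of 53 of the second (64.2%, 50.7 to 75.7) overlapped, against 54.5% and 44.4% in their flanks. On chromosome 7 the share was 42.4% against 47.4% in the flanks, on chromosome 9 it was 18.2% against 10.3%, and on chromosome 19 it was 43.5% against 35%, each with an interval of the difference that included 0. Several peaks can share an H3K9me3 region. Peaks no more than 10 kb apart were then counted as 1 group, and each isolated peak as a group of its own. Of the resulting 81 groups in the clusters, 53 of them single peaks, 43.2% held an overlapping peak, against 32.3% in the flanks. The difference was 10.9 points with an interval of -1.79 to 23.6. Counted peak by peak, the difference was 7.93 points (-5.51 to 21.2) without the second chromosome 2 cluster and 10.5 (-0.654 to 21.4) without the first.

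Read from the H3K9me3 list, 47 of 222 regions in the clusters held a KAP1 peak (21.2%, interval 16.3 to 27.0). The flanks had 63 of 383 (16.4%, 13.1 to 20.5), and the whole list 15.4%. The difference from the flanks, 4.72 points, had an interval of -1.60 to 11.5, and no single cluster had an interval that left out 0. From the rest of the list the clusters differed by 5.77 points (0.895 to 11.6), with neighbouring regions counted as if independent. Of the 47 regions, 31 held 1 KAP1 peak and 16 held more (34.0%). In the flanks 33.3% of the regions with KAP1 held more than 1 peak.

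**Figure D3:**
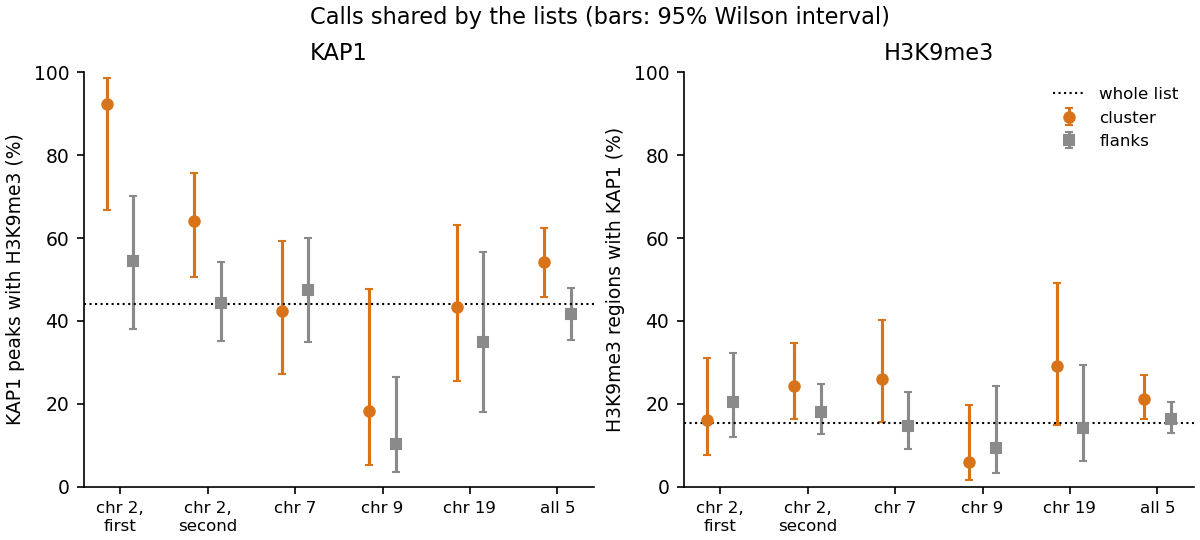
Share of KAP1 peaks that overlap H3K9me3 (left) and of H3K9me3 regions that hold a KAP1 peak (right), in percent, per cluster and flanks with 95% Wilson intervals. The dotted line is the whole list. The first chromosome 2 cluster stands highest on the left at 92.3%, and on the right all clusters overlap their flanks.

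Within the clusters, KAP1 peaks that stood in groups overlapped H3K9me3 more often than isolated peaks. Another KAP1 peak lay within 10 kb of 80 of the 133 peaks (60.2%), against 54.2% over the whole list and 49.6% in the flanks. Of those 80 peaks, 60 overlapped H3K9me3 (75%, interval 64.5 to 83.2), and of the 53 isolated peaks 12 did (22.6%, 13.5 to 35.5). In the flanks the shares were 63.6% (54.6 to 71.7) and 20% (13.8 to 28.0), and in the whole list 59.5% (58.5 to 60.4) and 25.9% (25.0 to 26.8). The 80 peaks formed 28 groups. Peaks of a group can share an H3K9me3 region, so the intervals for grouped peaks understate the counting error. Score went with overlap as well. Among the 69 cluster peaks above the median score of the KAP1 list, a class with 50% of the list, 50 overlapped H3K9me3 (72.5%, interval 61.0 to 81.6), and 22 of the other 64 did (34.4%, 23.9 to 46.6). The corresponding shares were 62.4% and 21.5% in the flanks and 57.6% and 30.6% in the whole list. For the 61 cluster peaks without overlap, the median distance to H3K9me3 was 31.4 kb, with 6 of them within 1 kb and 40 more than 10 kb away. For the 139 flank peaks without overlap it was 29.8 kb, with 13 within 1 kb and 100 more than 10 kb away. In the whole list the median distance was 18.1 kb.

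Score and width of the calls were close to the flanks when pooled. The score is the authors' own number for each region, and it was compared only within a list. KAP1 peaks in the clusters had scores from 70 to 3100 with a median of 116.3, against 104.3 in the flanks and 106.1 in the whole list. The difference in medians of 12.1 had an interval of -8.37 to 35.8. Their median width was 662 bp against 628 bp. In the upper 10% of the list by score were 19 of 133 (14.3%), against 10.5% in the flanks and 10% of all peaks. These 19 include a single group of 5 neighbouring peaks on chromosome 19, described below, whose lowest score was 429.0. H3K9me3 regions had a median width of 496 bp against 533 bp in the flanks, a difference of -37 bp with an interval of -150.5 to 122.2 bp, and a median score of 45 against 48. Of the 222 regions, 24 (10.8%) were in the widest 10% of the list, against 8.36% in the flanks and 10% of the list by construction. Covered length was 12.3 kb per Mb for H3K9me3 in the clusters and 9.33 in the flanks, and 5.43 and 4.69 kb per Mb for KAP1.

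**Figure D4:**
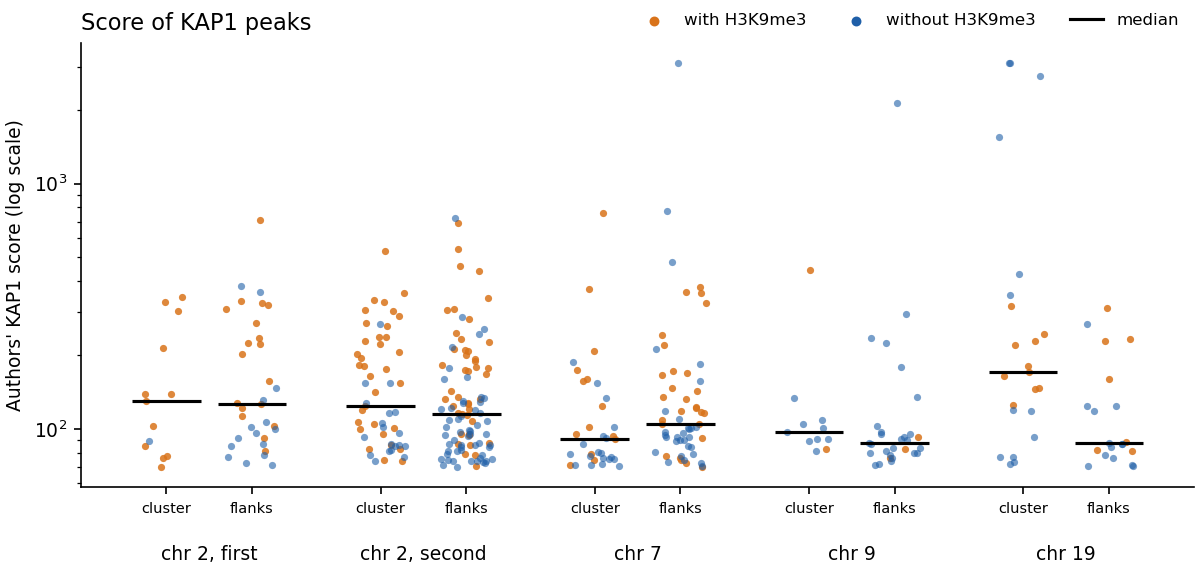
Authors' score of each KAP1 peak on a log scale, by cluster and flanks, orange where the peak overlaps H3K9me3 and blue where it does not, with the median as a black line. The medians of cluster and flanks lie close together except on chromosome 19 (169.7 against 87.2), where the highest points are blue.

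Wide H3K9me3 regions of the clusters held KAP1 more often than narrow ones. A wider region has more room to share 1 bp with a peak, and this was not corrected for. Width also ranked the H3K9me3 list almost as its score did (rank correlation 0.987), so the 2 are not separate traits here. Of 29 regions of at least 2 kb, 25 held a KAP1 peak (86.2%, interval 69.4 to 94.5), while of 112 regions under 500 bp 9 did (8.04%, 4.29 to 14.6). Regions of at least 2 kb held KAP1 in 80% of 40 cases in the flanks (65.2 to 89.5) and in 58.1% of 4559 cases over the whole list (56.7 to 59.5). The interval of the clusters lies above that of the whole list, and it overlaps that of the flanks. All 15 regions of at least 3 kb in the clusters held KAP1, as did 20 of 24 in the flanks and 70.7% of the list. The widest of them spanned 7272 bp, and 36277 bp was the widest of the whole list. These width limits were set with the values known.

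**Figure D5:**
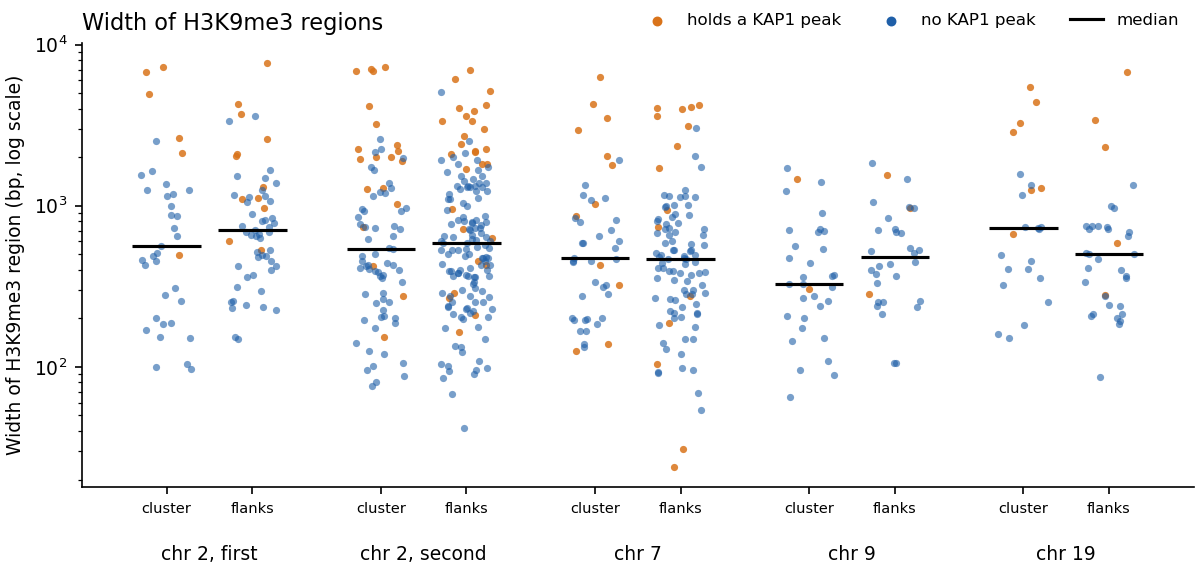
Width of each H3K9me3 region in bp on a log scale, by cluster and flanks, orange where the region holds a KAP1 peak, with the median as a black line. The widest region of each column is orange except on chromosome 9, where no region of the cluster or its flanks reaches 2 kb.

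Among the widest regions, 6 were of nearly the same length, between 6.5 and 7.5 kb, and all 6 lay on chromosome 2. Each held several KAP1 peaks, 20 in all. Over the whole list 212 regions fell in this width class, more than the 185 between 5500 and 6500 bp and the 101 between 7500 and 8500 bp, and 185 of the 212 (87.3%, interval 82.1 to 91.1) held KAP1. Several KAP1 peaks were held by 167 of the 212 (78.8%), with a mean of 2.94 peaks per region against 3.33 in the clusters. There were 2 such regions in the flanks, both with several KAP1 peaks and a mean of 3. The class was chosen after its values were seen, and it is described without a test.

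In the first chromosome 2 cluster the region at 36204878 to 36212105 (7228 bp, score 593) was the highest-scoring of its cluster and held 2 KAP1 peaks. Its stronger peak, at 36207139 to 36209338, was the highest-scoring KAP1 peak with H3K9me3 in that cluster (score 343.6) and spanned 2200 bp. The region at 37195351 to 37202119 (6769 bp) held 5 KAP1 peaks, with scores of 302.8, 129.7, 70, 77.2 and 213.9 in order of position. The strongest peaks there stood at its ends, with midpoints at 4% and 94.6% of its length.

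The second chromosome 2 cluster held the other 4. The region at 85534782 to 85541590 (6809 bp) had 4 KAP1 peaks, with midpoints at 4.96%, 16.4%, 36.8% and 98.4% of its length. The region at 86179964 to 86186829 (6866 bp) had 3, at 5.76%, 43.5% and 95.6%, and the last scored 328.5. Both had a KAP1 peak close to each end. The region at 87773881 to 87780911 (7031 bp, score 616), the highest-scoring of the cluster, had 3 with scores of 305.1, 205.3 and 179.8. The region at 88011792 to 88019063 (7272 bp) also had 3, with scores of 356.8, 262.3 and 237.6. In these last regions the first 2 peaks stood at 12.8% and 30.1%, and at 9.93% and 25.8% of the length, and the third at 102.3%, just past the end, and at 94.2%. All 6 regions thus had a KAP1 peak whose midpoint was at 93.7% of the length or farther, counted along increasing coordinates. That limit is the lowest of the 6 values themselves, and how often other regions of this width reach it was not examined. The 15 regions of at least 3 kb overlapped 33 KAP1 peaks. Leaving out the peak whose midpoint lay past the end of its region, 17 of 32 midpoints lay in the outer 20% at either end (53.1%, interval 36.4 to 69.1), against 53.2% in the flanks and 46.7% (45.1 to 48.3) in the whole list.

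The first chromosome 2 cluster had the highest share of KAP1 peaks with H3K9me3 of the 5, while 6 of its 37 H3K9me3 regions (16.2%) held KAP1, against 20.3% in its flanks. Its 13 KAP1 peaks had scores from 70 to 343.6 with a median of 129.7, and 10 of them stood in 3 groups whose peaks all overlapped H3K9me3. The single peak without overlap, at 36821211 to 36821745, scored 88.9 and lay 56.4 kb from the nearest H3K9me3 region. H3K9me3 regions were most crowded from 36.2 to 36.3 Mb, where 9 stood in 100 kb together with 4 KAP1 peaks. Between 37410177 and 37890994, 480.8 kb held no call of either list.

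In the second chromosome 2 cluster, grouping separated the peaks most clearly. Of 33 peaks in 11 groups, 29 overlapped H3K9me3 (87.9%, interval 72.7 to 95.2), and of 20 isolated peaks 5 did (25%, 11.2 to 46.9). Peaks of the same group often shared an H3K9me3 region, so the interval for grouped peaks understates the counting error. In a group of 3 peaks at 88081583 to 88087651, with scores from 84.9 to 116.7, no peak overlapped H3K9me3. An H3K9me3 region of 723 bp at 88085938 to 88086660 (score 56) lay within that span, 46 bp from the nearest peak. Scores of the 53 peaks ran from 73.6 to 529.4 with a median of 124.1. The highest was at 90206193 to 90208367, 2175 bp wide, with 91.2% of its length covered by an H3K9me3 region of 2018 bp. Among peaks without H3K9me3 the highest, at 90910203 to 90911064, scored 268.2 and lay 186.2 kb from the nearest region. The longest stretch with no call was 392.8 kb, from 88547306 to 88940078.

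The chromosome 7 cluster had the lowest median KAP1 score and the lowest H3K9me3 density of the 5. The median score was 90.8, with values from 70.5 to 759.5, and 10 of 33 peaks (30.3%) exceeded the median of the list. In its flanks the median was 104.7, and the difference of -13.9 had an interval of -35.4 to 2.63. A single site stood out. At 114411876 to 114414720 a peak of 2845 bp, the widest KAP1 peak of all 5 clusters, scored 759.5 and lay wholly within an H3K9me3 region of 2962 bp. The highest-scoring H3K9me3 region, at 110441599 to 110447918 (6320 bp, score 468), held only 1 KAP1 peak, which scored 70.9, close to the lowest score of the list. Among peaks without H3K9me3 the highest, at 111580877 to 111582047, scored 187.3. With 551.9 kb from 112631014 to 113182929, this cluster had the longest stretch without a call of the 5.

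The chromosome 9 cluster had the lowest median width of H3K9me3 regions and the lowest KAP1 density of the 5. Its 33 regions had a median width of 329 bp and none exceeded 1709 bp, so that none was in the widest 10% of the list. They covered 5.99 kb per Mb, less than in any other cluster. The ratio of 2.06 to the flanks rested on the distal side, where 3.33 regions per Mb were called, against 8.52 on the proximal side. With the proximal flank alone the ratio was 1.43 (0.817 to 2.56), with the distal flank alone it was 3.67, with flanks of 50% of the length it was 4.71, and for regions in the upper 50% by score it was 1.38 (0.522 to 3.50). All 11 KAP1 peaks stood alone, with no other KAP1 peak within 10 kb. Scores ran from 80.9 to 134.0 apart from a peak at 37737536 to 37738016, which scored 445.4 and was 63.2% covered by an H3K9me3 region of only 304 bp. The other peak with overlap was at 37757506 to 37757956 and scored 82.6. It lay in the highest-scoring H3K9me3 region of the cluster, at 37757055 to 37758516 (1462 bp, score 136). The highest-scoring peak without H3K9me3, at 38766798 to 38767569, scored 134.0. The longest empty stretch, 276.4 kb, ran from 38427777 to 38704152.

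The chromosome 19 cluster had the highest KAP1 density and median KAP1 score of the 5, and its strongest group had no H3K9me3. A group of 5 peaks at 12076512 to 12087259, 76.5 kb inside the proximal bound, had scores of 1549, 2737, 429.0, 3100 and 3100 in order of position. The nearest H3K9me3 region lay 37.2 kb from the closest of them and 47.3 kb from the farthest. Of the KAP1 list 99 peaks carry a score of exactly 3100, so this value does not rank the peaks that share it. The KAP1 density ratio of the cluster, 2.30 with all peaks, was higher in the upper 50% by score, at 4.5 (1.86 to 12.0), and with flanks of 50% of the length, at 3.29 (1.36 to 9.07). By covered length it was 3.22. It was lower, with intervals that took in 1, against the proximal flank alone, at 1.92 (0.915 to 4.23), and with peaks merged within 1 kb, at 1.89 (0.915 to 3.88). Trimming the cluster by 10% at each end gave 2 (0.969 to 4.06). Without the group the cluster held 18 peaks, 9 per Mb, and its ratio to the flanks was 1.80 with an interval of 0.898 to 3.58. The median score of the remaining peaks was 146.0, against 87.2 in the flanks, and 10 of the 18 (55.6%, interval 33.7 to 75.4) overlapped H3K9me3. When peaks within 10 kb were counted as 1 group, and isolated peaks as groups of their own, the density ratio was 1.29 (0.548 to 2.93). A second group, of 4 peaks at 12522082 to 12529025 with scores from 145.4 to 316.0, lay entirely in H3K9me3, and it contains the highest-scoring peak with overlap, at 12522082 to 12523441. The highest-scoring H3K9me3 region stood at 13115960 to 13121446 (5487 bp, score 461) and held 1 KAP1 peak. The longest stretch without a call was 281.4 kb, from 12738926 to 13020330.

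Pooled over the clusters, windows without a call took similar shares of the clusters and of their flanks, and single clusters differed in both directions. Of 186 windows of 100 kb in the clusters, 117 held no KAP1 peak (62.9%), against 63.4% of the flank windows and 61.2% of all windows of chromosomes 1 to 19 and X. No H3K9me3 region was called in 83 windows (44.6%), against 47.0% in the flanks and 36.5% of all windows. Neither list had a call in 65 windows (34.9%), against 35.8% in the flanks and 28.8% of all windows, and both had calls in 51 (27.4%), against 25.3% and 31.1%. On chromosome 9, 40.7% of the windows had no H3K9me3 region, against 68.5% in its flanks. On chromosome 19 the shares were 35% and 50%, and in the second chromosome 2 cluster 45% and 35.8%. Windows with 4 or more KAP1 peaks numbered 10 in the clusters and held 47 of the 133 peaks (35.3%), against 25.2% of the peaks in the flanks and 32.4% over all windows. The longest stretch without a call was longer in the flanks for the second chromosome 2 cluster (782.9 kb), chromosome 9 (562.4 kb) and chromosome 19 (391.1 kb). It was shorter in the flanks for the first chromosome 2 cluster (360.9 kb) and chromosome 7 (511.7 kb). On chromosome 2 these flank stretches ended at the outer bound of a flank. Each cluster has 2 flanks of its own length, so the flanks offered more room for a long stretch. Sequence where reads cannot be placed uniquely, which is common in duplicated gene arrays, was not excluded from these lengths, and its part in the empty windows was not tested.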

How the data were processed

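The authors deposited 1 list of regions per antibody, with a chromosome, start, end, name and score and no header. Per the submitters' processing notes, Bowtie2 2.2.1 and mm9 were used. KAP1 peak names have the form that MACS writes. The meaning of either deposited score was not given in the sources used here, nor was the caller of the H3K9me3 list, the settings or any control. Read depth is unknown, so no detection limit is given. The members and the comparisons were chosen with earlier results of these data known.

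Regions were assigned by midpoint, coordinates are counted from 1, and overlap required 1 bp. Density intervals are exact Poisson intervals and density ratios have exact conditional intervals. Shares have Wilson intervals, differences of shares Newcombe intervals, and differences of medians intervals combined from order statistics. Whole-list densities use the span between the first and last called base of each chromosome. By rule, the text names in each cluster the highest-scoring KAP1 peak with and without H3K9me3, the highest-scoring H3K9me3 region and the longest stretch without a call. Groups of peaks and width classes were chosen after their values were seen. No genome sequence or annotation of mm9 was used here, so no sequences are printed. The computation was tested on simulated lists. Python 3.11.15 was used, with pandas 2.3.3, numpy 2.4.6 and scipy.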

Additional observations from a re-analysis of the deposited data

How the results depend on the processing

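The alternatives were shorter or one-sided flanks, clusters trimmed by 10% at each end, the upper 50% by score, merging within 1 kb, other overlap limits, covered length, and leaving out each cluster in turn. Grouping within 10 kb and the lower 50% by score were added after the data were seen. Of 98 pooled values, 97 stayed within the interval of the value reported. The exception was the median width of H3K9me3 regions, which was 145.5 bp larger in the clusters than in the flanks in the upper 50% by score (interval -60.2 to 482.1). Staying within a wide interval is a weak criterion. The difference in KAP1 share ran from 7.91 points (distal flanks alone, interval -4.78 to 20.2) to 19 points (flanks of 50% of the length, 6.47 to 30.7). It was 10.1 points (-4.09 to 22.9) in the upper 50% by score and 12.9 points (-0.358 to 26.7) in the lower. Leaving out a cluster gave 7.93 to 18.2 points. The H3K9me3 density ratio had an interval above 1 with the shorter flanks, at 1.25 (1.02 to 1.54), with trimmed clusters, at 1.23 (1.03 to 1.47), and without chromosome 7, at 1.25 (1.03 to 1.52). Without chromosome 19 the difference in median KAP1 score between clusters and flanks was -3.68, with an interval of -18.1 to 20.1. For single clusters, 12 of 290 values lay outside the interval of the value reported. No paired analysis was possible because each antibody has a single library, and for the same reason no replicate could be left out. Unknown depth limits what the absence of a call can show.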
